A study of Mus musculus with 12 samples.

Results

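The tumour suppressor p53 and the genes through which it acts were followed on 12 Affymetrix mouse expression arrays of KH2 embryonic stem cells before RA (retinoic acid) and over the next 6 h. The list held 32 genes: p53 itself, its negative regulators, and known target genes in growth arrest, apoptosis and DNA repair. They were found through the gene symbols of the platform annotation, and 30 of the 32 had a probe set named for them alone, 58 probe sets in all out of 45101 on the array. Trp53, the p53 gene, and Bax, a pore-forming killer of mitochondria, had none and were not analysed here. Each gene was represented by its brightest probe set, and 18194 genes were tested in this way. All 30 measured genes entered the tests, since no filter on low values was applied.

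KH2 is a mouse line that carries a doxycycline-controlled transactivator and a docking site for transgenes beside the Col1a1 gene, and it was grown here on feeder cells. The labels name no transgene and no doxycycline. The 4 groups were cells without RA and cells after 2, 4 or 6 h of 0.3 µM RA in a differentiation medium with 10% serum, each with replicates A, B and C (n = 3). RA is the vitamin A derivative that activates the nuclear RA receptors and sets these cells on the way to differentiation. The labels give that medium only for the treated cells, so the effects of RA and of the new medium cannot be told apart in a comparison against no RA. Comparisons between RA times share one medium. No group is labelled with that medium without RA, so time in RA and time in the medium cannot be told apart there. The protocols differ on whether attached or unattached cells were kept after a replating of 30 min on gelatin. Whether the replicates came from separate cultures is not stated, and a p-value here measures only the spread among these arrays, which could be technical. In such bulk RNA, fewer cells of a type and less RNA per cell cannot be told apart.

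In most cells p53 is kept low by Mdm2, a ubiquitin ligase that marks it for degradation, and by Mdm4, a relative that binds and blocks it. DNA damage and other stresses free p53, which then binds its response elements, 2 copies of a short half-site of 10 letters, and raises genes that halt the cell cycle, repair DNA or kill the cell. Mdm2 is itself a target, which closes a feedback loop. Mouse embryonic stem cells make much p53 and have a short G1 phase, and p53 is known in them for promoting differentiation, in part by repressing Nanog.

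Values are deposited log2 signals, and their median over all probe sets and arrays was 6.07. They were not tested against background. Fas lay under it on all 12 arrays, the other members above it on every array except Tnfrsf10b, which lay under it on 3. Untreated replicate C stood somewhat apart: it correlated at 0.9935 and 0.9928 with A and B over all probe sets, against 0.9971 between those 2 and 0.9971 to 0.998 within the RA groups. Among the members its largest deviation was in Plk3, where C minus the mean of A and B was -1.04. No pair of arrays held identical values.

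Most of the list stood highest at 4 h. The group mean was highest at 4 h in 17 of the 30 genes, against 18.2% of all genes, and it was lowest at 6 h in 14 of the 30, against 31.8% of all genes. A gene was called where limma gave a Benjamini-Hochberg adjusted p under 0.05 over all 18194 genes, differences are on the log2 scale, and ± gives the SE of the fit. A change over the 4 groups was called by the F test in 20 of the 30, against 36.3% of all genes. The other 10 were Mdm4, Sesn1, Zmat3, Fbxw7, Fas, Apaf1, Trp53i11, Rrm2b, Ddb2 and Rps27l. At 2 h against no RA 3 of 30 were called, all higher, against 2.69% of all genes, 1.50% higher and 1.19% lower. At 4 h, 13 were called, 11 higher and 2 lower, against 26.9% of all genes, 12.8% higher and 14.1% lower. At 6 h, 9 were called, 4 higher and 5 lower, which is close to the 29.7% of all genes called (15.0% higher and 14.7% lower). The shares of all genes include dim genes, while every member but Fas had a mean above 6.07. Shares among genes of like signal were not computed. With genes whose mean lay under 6.07 left out, 15 members and 4973 genes were called at 4 h, against 13 and 4893 otherwise. The median log2 difference of the 30 genes was 0.0726 at 2 h, 0.258 at 4 h and -0.0964 at 6 h, beside 0.00434, 0.00229 and -0.0135 over all genes. The 3 comparisons share the untreated arrays. The arrays of the compared groups did not overlap in 11 of the 30 genes at 2 h, 18 at 4 h and 12 at 6 h, against 22.2%, 37.0% and 39.0% of all genes. Leaving out 1 array at a time gave 1 to 2 calls of members at 2 h, 9 to 15 at 4 h and 6 to 14 at 6 h, the 14 without untreated C. All genes called were then 219 to 734, 3789 to 5299 and 4328 to 6152, the 6152 without untreated C. With only the arrays of the 2 groups compared in the fit, 0, 8 and 5 members were called. All genes called were then 134, 3081 and 3618, against 489, 4893 and 5409 in the fit of all arrays.

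**Figure D1:**
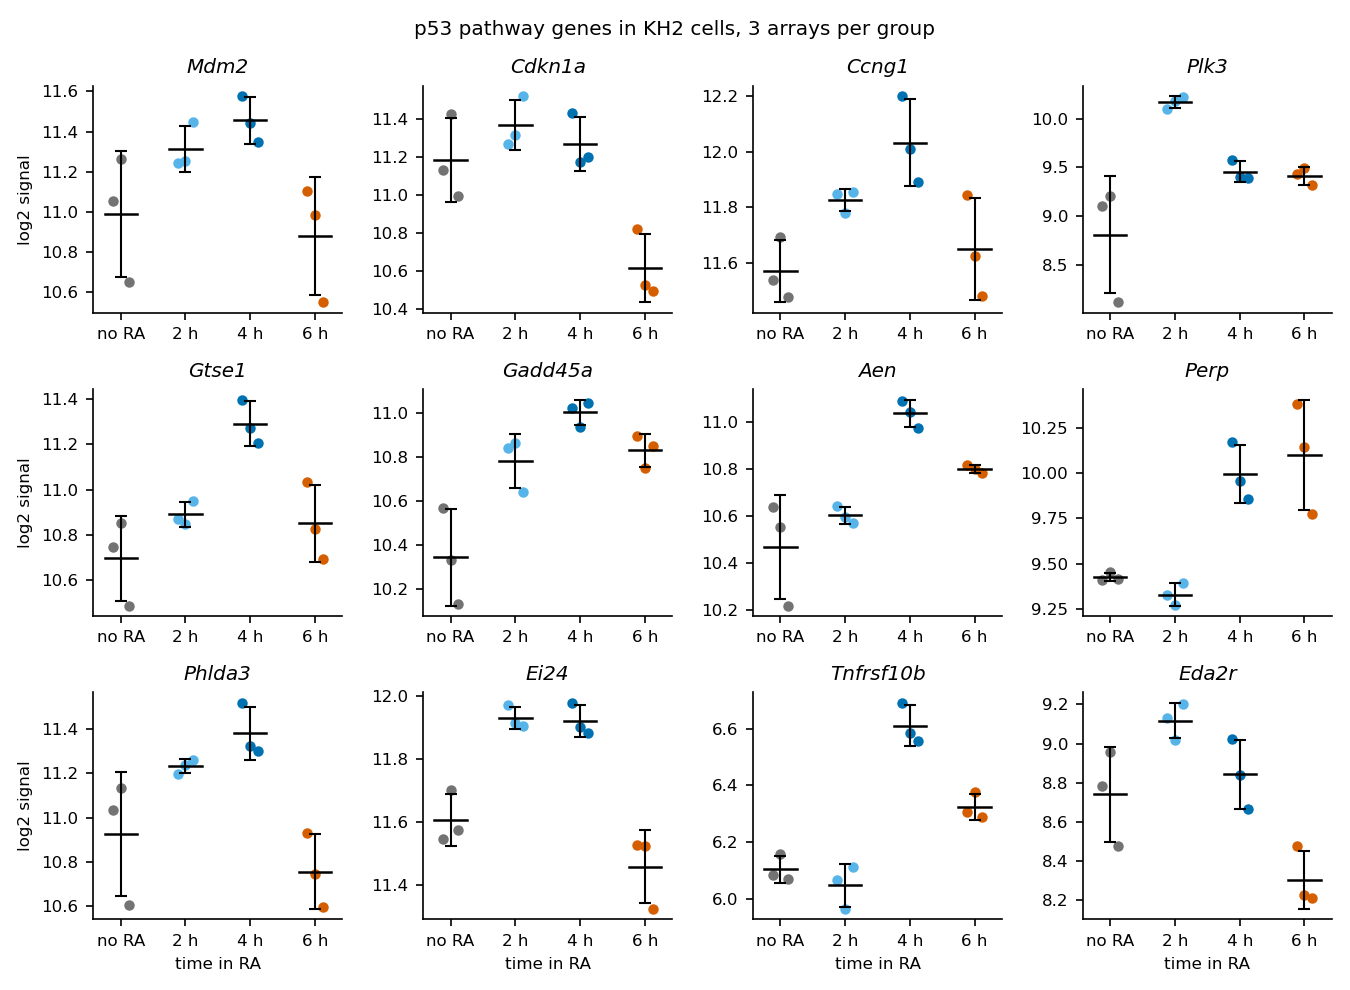
Deposited log2 signal (y axis) of members of the list in each array, by group from no RA to 6 h of RA (x axis), with points for single arrays, horizontal lines for the mean of 3 and bars for the SD. The y axis differs between panels. Of the 12 genes shown 7 have their highest mean at 4 h, and Plk3 has it at 2 h (10.10 to 10.22).

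**Figure D2:**
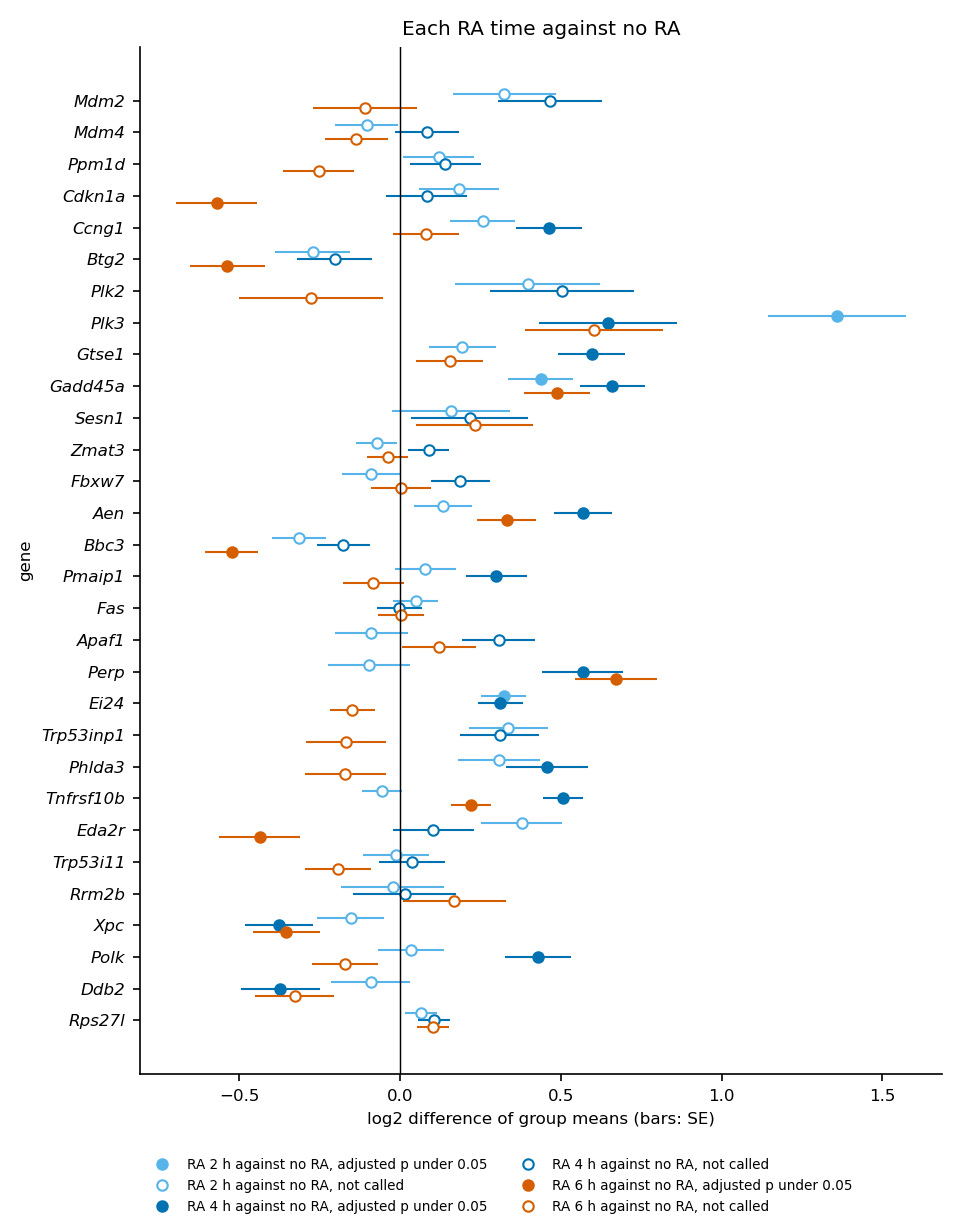
Log2 difference from no RA (x axis) for the 30 measured members (y axis) at 2, 4 and 6 h of RA, with bars for the SE of the fit over 12 arrays. Filled points have an adjusted p under 0.05: 3 genes at 2 h, 13 at 4 h and 9 at 6 h.

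Promoters of the list were read from RefSeq (GRCm38.p6), which gave a window for 24 of the 32 genes, 35 windows in all. The 250 bases before each start were searched for the p53 half-site, whose pattern is its own reverse complement, so that 1 search covers both strands. It was present in 12 of the 24 genes (50%), against 8.2% of 27025 genes, and in 12 of 35 windows (34.3%), against 7.13% of 32851 windows. A pair of half-sites with a gap of 0 to 13 bases occurred in 1 member, Cdkn1a, and in 18 genes in all. These genes were listed as known p53 targets, so the share is a description. Those of members called in some comparison, and that of Mdm2, are shown here because their values follow, with the half-site in capitals and up to 20 bases on each side, 5′ to 3′ on the gene's strand. The first base of each match lies between 231 bases (Polk) and 10 bases (Ei24) before the start, within the only stretch searched. Aen, Cdkn1a and Polk each had another window, without a match.
Cdkn1a (chr17:29090886-29090957, plus strand, 2 half-sites with a gap of 12): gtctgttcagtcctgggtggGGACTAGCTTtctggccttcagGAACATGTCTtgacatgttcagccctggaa
Ccng1 (chr11:40755442-40755491, minus strand): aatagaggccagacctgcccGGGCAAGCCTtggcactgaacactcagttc
Gadd45a (chr6:67037418-67037467, minus strand): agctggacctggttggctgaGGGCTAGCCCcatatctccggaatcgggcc
Aen (chr7:78895917-78895966, plus strand): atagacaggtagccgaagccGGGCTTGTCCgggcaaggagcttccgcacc
Ei24 (chr9:36797335-36797364, minus strand): ccagctgccccgtgcggcccGGGCATGCCC
Polk (chr13:96519389-96519437, minus strand): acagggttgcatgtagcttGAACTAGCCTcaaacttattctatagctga
Ppm1d (chr11:85311102-85311151, plus strand): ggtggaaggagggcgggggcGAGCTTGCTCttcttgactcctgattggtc
Mdm2, whose 4 h difference just missed the threshold (chr10:117710915-117710964, minus strand): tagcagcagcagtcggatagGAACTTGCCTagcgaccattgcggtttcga
A match of letters does not show binding, and its absence in these windows says nothing of p53 at other sites. In Cdkn1a the 10 bases straight after the second half-site miss the pattern at their first letter only. The search did not count them, and which of these stretches p53 binds was not tested. Plk3, Btg2, Phlda3, Bbc3, Eda2r, Gtse1, Apaf1, Fbxw7 and Plk2, each called in some comparison below, had no match in any window.

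Among the 3 measured regulators of p53, none was called against no RA at any time. Mdm2 had log2 signals of 11.05, 11.27 and 10.65 without RA, 11.24, 11.25 and 11.45 at 2 h, 11.58, 11.44 and 11.35 at 4 h and 11.10, 10.99 and 10.55 at 6 h. All 3 arrays at 4 h were above all untreated arrays, and untreated C was the lowest of its group. The differences were 0.32 ± 0.16 at 2 h (adjusted p = 0.327), 0.47 ± 0.16 at 4 h (adjusted p = 0.051, 95% interval 0.11 to 0.82) and -0.11 ± 0.16 at 6 h (adjusted p = 0.674). At 4 h it passed after quantile normalization (adjusted p = 0.0473), with dim genes left out (0.0375), with the replicate block (0.0366) and without untreated B (0.0196). Its F test over the 4 groups was called (adjusted p = 0.0375). Ppm1d, the phosphatase Wip1 that removes activating phosphates from p53 and its kinases, ranged over 9.42 to 9.98 and differed from no RA by 0.14 ± 0.11 at 4 h and -0.25 ± 0.11 at 6 h. Without untreated C it was called lower at 6 h (-0.41, adjusted p = 0.00071). It was lower at 6 h than at 2 h (-0.37 ± 0.11, adjusted p = 0.0224). That call was lost without RA 2 h A or C or RA 6 h B or C (adjusted p up to 0.0718). Mdm4 stayed within 10.93 to 11.40, with untreated C as its highest array. It was called in no comparison with all arrays and the settings of the report. Without untreated C it was called higher at 4 h than without RA (0.22, adjusted p = 0.0172). From 2 to 4 h it was called higher with array weights (0.18, adjusted p = 0.0258) and with only the 2 groups compared (0.19, 0.0239). Its brightest probe set without a cross-hybridization suffix, 1419558_at, was also called higher in that step (0.39, adjusted p = 0.0187).

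Of the 10 growth arrest genes, 2 were higher at 2 h, 4 at 4 h and 1 at 6 h, against 1.50%, 12.8% and 15.0% of all genes, and 2 were lower at 6 h, against 14.7%. The 3 called at 6 h are 30% of the 10, close to the 29.7% of all genes. Plk3, a polo-like kinase induced by stress and by serum, showed the largest change of the list. Its log2 signal was 9.11, 9.21 and 8.12 without RA, 10.10, 10.18 and 10.22 at 2 h, 9.58, 9.40 and 9.39 at 4 h and 9.43, 9.49 and 9.32 at 6 h. Every RA array lay above every untreated array, and untreated C was the lowest by far. Plk3 was 2.56-fold higher at 2 h (1.36 ± 0.21, adjusted p = 0.00539), the only member called with a change of 2-fold or more. That size includes untreated C, for which C minus the mean of A and B was -1.04, and it is smaller without C. At 4 h the difference was 0.65 ± 0.21, adjusted p = 0.0428, and at 6 h 0.60 ± 0.21, adjusted p = 0.0533, which misses the threshold. Plk3 was lower at 4 h than at 2 h (-0.71 ± 0.21, adjusted p = 0.0309), a call lost whichever of those 6 arrays was left out (up to 0.0882). Without untreated C the difference at 4 h was 0.30 (adjusted p = 0.0146) and at 6 h 0.25 (adjusted p = 0.0272). The 2 h call was kept whichever array was left out (adjusted p up to 0.0292) and lost with only the 2 groups compared (0.0954). The 4 h call was lost whichever RA 4 h array was left out (up to 0.127), with median centring and with the trended variance model.

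Gadd45a, a stress protein that restrains the G2 phase and takes part in repair, was the one arrest gene called at all 3 times. Its log2 signal was 10.57, 10.33 and 10.13 without RA, 10.84, 10.86 and 10.64 at 2 h, 11.02, 10.94 and 11.05 at 4 h and 10.89, 10.75 and 10.85 at 6 h. No RA array overlapped the untreated ones. Gadd45a was higher by 0.44 ± 0.10 at 2 h (adjusted p = 0.0444), 0.66 ± 0.10 at 4 h (1.58-fold, adjusted p = 0.000594) and 0.49 ± 0.10 at 6 h (adjusted p = 0.00343). The 2 h call was lost without untreated B, untreated C or any RA 2 h array (adjusted p up to 0.172) and in a fit of all probe sets (0.0575), while the 4 h and 6 h calls were kept under every alternative run.

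Cdkn1a encodes p21, the inhibitor of cyclin-dependent kinases through which p53 halts the cell cycle. Its log2 signal was 11.13, 11.43 and 11.00 without RA, 11.27, 11.32 and 11.52 at 2 h, 11.43, 11.18 and 11.20 at 4 h and 10.83, 10.53 and 10.50 at 6 h. At 2 and 4 h its arrays overlapped the untreated ones, and at 6 h all 3 lay below every other array. Cdkn1a fell at 6 h, to 1.48-fold lower than without RA (-0.57 ± 0.13, adjusted p = 0.0046), a call kept under every alternative run. At 2 and 4 h it differed by 0.18 ± 0.13 and 0.083 ± 0.13 (adjusted p = 0.473 and 0.698). Btg2, an antiproliferative protein that speeds the decay of mRNAs, had log2 signals of 9.93, 10.12 and 9.94 without RA, 9.75, 9.58 and 9.85 at 2 h, 9.99, 9.76 and 9.63 at 4 h and 9.68, 9.39 and 9.31 at 6 h. Its 6 h arrays lay below all untreated arrays. Btg2 also fell at 6 h (-0.54 ± 0.12, adjusted p = 0.0044).

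Ccng1, which encodes cyclin G1, and Gtse1, a microtubule-binding protein that can carry p53 out of the nucleus, had their highest means at 4 h. Ccng1 had log2 signals of 11.54, 11.69 and 11.48 without RA, 11.85, 11.78 and 11.85 at 2 h, 12.20, 12.01 and 11.89 at 4 h and 11.84, 11.63 and 11.48 at 6 h, and its 2 h and 4 h arrays all lay above the untreated ones. Ccng1 was higher at 4 h (0.46 ± 0.10, adjusted p = 0.00527) and not called at 6 h (0.080 ± 0.10, adjusted p = 0.621). For Gtse1 the log2 signals were 10.75, 10.85 and 10.49 without RA, 10.87, 10.85 and 10.95 at 2 h, 11.40, 11.27 and 11.21 at 4 h and 11.03, 10.83 and 10.70 at 6 h, and only the 4 h arrays stood clear of every array of the other groups. Gtse1 was higher at 4 h (0.60 ± 0.10, adjusted p = 0.00133), also against 2 h (0.40 ± 0.10, adjusted p = 0.0153), the second call being lost without RA 2 h B or RA 4 h A (up to 0.0622).

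The other 4 arrest genes were not called against no RA. Plk2, a second polo-like kinase, ranged over 9.20 to 10.73 and differed by 0.50 ± 0.22 at 4 h and -0.28 ± 0.22 at 6 h. Without untreated B it was called higher at 4 h (0.69, adjusted p = 0.0462). It was lower at 6 h than at 2 h (-0.67 ± 0.22, adjusted p = 0.0379), a call lost without RA 6 h B or C or any RA 2 h array (up to 0.145). Fbxw7, the substrate receptor of a ubiquitin ligase that degrades cyclin E, ranged over 9.56 to 10.04 and was higher at 4 h than at 2 h (0.28 ± 0.092, adjusted p = 0.0463), a call lost whichever of the 6 arrays was left out (up to 0.165). Sesn1, a sestrin that restrains growth signalling, ranged over 8.31 to 9.30, its lowest and highest arrays both untreated. Without untreated C it was called higher at 4 h (0.47, adjusted p = 0.0108) and at 6 h (0.49, adjusted p = 0.00763). Zmat3, a zinc finger protein that binds RNA, stayed within 10.59 to 10.81.

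Of the 12 apoptosis genes, 1 was higher at 2 h, 6 at 4 h and 3 at 6 h, against 1.50%, 12.8% and 15.0% of all genes, and 2 were lower at 6 h, against 14.7%. The genes that rose act at different places: Aen in the nucleus, Perp and Tnfrsf10b at the cell surface, Ei24 in the endoplasmic reticulum, and Pmaip1 and Phlda3 in the control of mitochondrial death and of survival signalling. Aen, an exonuclease that degrades DNA in dying cells, had log2 signals of 10.63, 10.55 and 10.22 without RA, 10.64, 10.59 and 10.57 at 2 h, 11.09, 11.04 and 10.97 at 4 h and 10.81, 10.80 and 10.78 at 6 h. All arrays at 4 and 6 h lay above the untreated ones. Aen was higher at 4 h (0.57 ± 0.091, adjusted p = 0.000754) and at 6 h (0.33 ± 0.091, adjusted p = 0.0159). Without untreated C the 6 h difference was 0.21 (adjusted p = 0.0156), and the 6 h call was lost with the mean of its probe sets.

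Perp, a membrane protein of cell junctions, had its highest mean at 6 h. Its log2 signal was 9.41, 9.45 and 9.42 without RA, 9.33, 9.27 and 9.39 at 2 h, 10.17, 9.96 and 9.86 at 4 h and 10.38, 10.14 and 9.78 at 6 h. The 2 h arrays lay just below the untreated ones, and those of 4 and 6 h above both. Perp was higher at 4 h (0.57 ± 0.13, adjusted p = 0.00586) and at 6 h (0.67 ± 0.13, adjusted p = 0.00179, 1.59-fold), and from 2 to 6 h it gained 0.77 ± 0.13 (adjusted p = 0.000781). These calls were kept under every alternative run.

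Tnfrsf10b, the mouse receptor for the death ligand TRAIL, was dim, with log2 signals of 6.08, 6.16 and 6.07 without RA, 6.07, 5.96 and 6.11 at 2 h, 6.69, 6.58 and 6.56 at 4 h and 6.31, 6.38 and 6.29 at 6 h. All 3 arrays at 4 h and all 3 at 6 h lay above every untreated and 2 h array, and 3 of those lower arrays were under the median of all values, as was the 2 h mean of 6.05, so that a difference from 2 h starts from a level not tested against background. It was called higher at 4 h (0.51 ± 0.063, adjusted p = 0.000138) and at 6 h (0.22 ± 0.063, adjusted p = 0.0194). The 6 h call was lost without untreated A or RA 6 h B (up to 0.0757) and with the other choices of probe set. Fas, the other classical death receptor on the list, ranged over 3.78 to 4.00, below that median throughout.

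Ei24, a membrane protein of the endoplasmic reticulum, had log2 signals of 11.55, 11.70 and 11.58 without RA, 11.97, 11.91 and 11.91 at 2 h, 11.98, 11.90 and 11.88 at 4 h and 11.53, 11.52 and 11.33 at 6 h. The 2 h and 4 h arrays lay above all others, and those of 6 h just below the untreated ones. It was higher at 2 h (0.32 ± 0.070, adjusted p = 0.0327) and at 4 h (0.31 ± 0.070, adjusted p = 0.00594), and at 6 h the difference was -0.15 ± 0.070, adjusted p = 0.139. The 2 h call was lost without untreated A or C or any RA 2 h array (up to 0.137) and in the fit of all probe sets (0.0518). Phlda3, which blocks the kinase Akt at the membrane, had log2 signals of 11.04, 11.14 and 10.61 without RA, 11.20, 11.24 and 11.26 at 2 h, 11.52, 11.32 and 11.30 at 4 h and 10.93, 10.74 and 10.59 at 6 h, with the 4 h arrays above every other array. It was higher at 4 h (0.46 ± 0.13, adjusted p = 0.0188), by 0.30 without untreated C, and the call was lost without RA 4 h A (adjusted p = 0.0772). Pmaip1, which encodes the BH3-only protein Noxa, gave log2 signals of 10.68, 10.63 and 10.84 without RA, 10.82, 10.72 and 10.86 at 2 h, 11.18, 10.95 and 10.93 at 4 h and 10.81, 10.54 and 10.56 at 6 h, the 4 h arrays again above all others. Its call at 4 h (0.30 ± 0.095, adjusted p = 0.0346) was lost without untreated A or B or RA 4 h A or B (up to 0.141).

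Bbc3 encodes Puma, a BH3-only protein like Noxa, which binds the survival proteins of the Bcl-2 family. Its log2 signal was 9.40, 9.49 and 9.56 without RA, 9.10, 9.17 and 9.23 at 2 h, 9.41, 9.36 and 9.15 at 4 h and 9.08, 8.89 and 8.91 at 6 h. In Bbc3 both the 2 h and the 6 h arrays lay below all untreated arrays, and the 4 h arrays overlapped them. Bbc3 fell at 6 h (-0.52 ± 0.083, adjusted p = 0.000541), a call kept under every alternative run, and at 2 h the difference was -0.31 ± 0.083, adjusted p = 0.0725. Eda2r, a receptor for ectodysplasin A2, had log2 signals of 8.78, 8.96 and 8.48 without RA, 9.13, 9.02 and 9.20 at 2 h, 9.02, 8.84 and 8.67 at 4 h and 8.47, 8.23 and 8.21 at 6 h. Its 2 h arrays lay above all untreated arrays, and its 6 h arrays below them, the nearest by a narrow margin. It fell at 6 h (-0.44 ± 0.13, adjusted p = 0.0206), a call lost without untreated A or B or RA 6 h B or C (up to 0.0825).

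Apaf1, the scaffold of the apoptosome, was not called against no RA on its brightest probe set (0.31 ± 0.11, adjusted p = 0.0694 at 4 h) and ranged over 9.07 to 9.63. Without untreated C it was called higher at 4 h (0.40, adjusted p = 0.022). It was higher at 4 h than at 2 h (0.40 ± 0.11, adjusted p = 0.0258), a call lost without RA 2 h B or C or RA 4 h A or B (up to 0.0913). Trp53inp1, a nuclear stress protein that assists p53, was among the brightest members, at 11.91 to 12.78, and was lower at 6 h than at 2 h (-0.50 ± 0.12, adjusted p = 0.00841). Against no RA it differed by 0.34 ± 0.12, 0.31 ± 0.12 and -0.17 ± 0.12 at 2, 4 and 6 h, none called. Trp53i11 stayed within 8.26 to 8.72 and was called nowhere with all arrays. Without RA 6 h A it was called lower at 6 h than without RA (-0.31, adjusted p = 0.0338) and than at 2 h (-0.29, adjusted p = 0.0387).

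The 5 genes of DNA repair and nucleotide supply moved in different directions. Polk, a translesion polymerase that copies past damaged bases, had log2 signals of 8.74, 8.85 and 9.10 without RA, 8.99, 8.90 and 8.91 at 2 h, 9.50, 9.24 and 9.25 at 4 h and 8.87, 8.71 and 8.60 at 6 h. Its 4 h arrays lay above all others. Polk was higher at 4 h (0.43 ± 0.10, adjusted p = 0.00836) and at 6 h not called (-0.17 ± 0.10, adjusted p = 0.251). Xpc, which recognises bulky damage for nucleotide excision repair, had log2 signals of 8.48, 8.46 and 8.93 without RA, 8.51, 8.39 and 8.50 at 2 h, 8.26, 8.23 and 8.25 at 4 h and 8.25, 8.27 and 8.28 at 6 h. All arrays at 4 and 6 h lay below every earlier array, and untreated C was the highest. Xpc was lower at 4 h (-0.38 ± 0.10, adjusted p = 0.0188) and at 6 h (-0.35 ± 0.10, adjusted p = 0.023). Without untreated C these differences were -0.22 (adjusted p = 0.00994) and -0.20 (adjusted p = 0.0149). The 4 h call was lost without RA 4 h B (adjusted p = 0.0549) and the 6 h call whichever RA 6 h array was left out (up to 0.0664).

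Ddb2, the ultraviolet damage sensor that works ahead of Xpc, had log2 signals of 7.98, 8.03 and 8.40 without RA, 8.07, 8.14 and 7.92 at 2 h, 7.79, 7.83 and 7.67 at 4 h and 7.58, 7.85 and 7.99 at 6 h. The 4 h arrays lay below all untreated ones. The call at 4 h (-0.37 ± 0.12, adjusted p = 0.0415) was lost without untreated C (-0.24, adjusted p = 0.13), without any RA 4 h array and after quantile normalization. Its F test was not called (adjusted p = 0.0706). Rrm2b, the p53-inducible subunit of ribonucleotide reductase, ranged over 7.19 to 7.98 with both extremes among the untreated arrays. Rps27l, a relative of a ribosomal protein, was the brightest member at 14.03 to 14.19. Neither was called in any comparison with all arrays and the settings of the report. Without untreated C, Rrm2b was called higher at 6 h (0.39, adjusted p = 0.0167). With the trended variance model Rps27l was called higher at 4 h (0.11, adjusted p = 0.00859) and 6 h (0.10, adjusted p = 0.00892).

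Between the RA times, which share one medium, calls were mostly higher up to 4 h and lower after it. Both steps use the same 3 arrays at 4 h, so the rise and the fall are not separate evidence. From 2 to 4 h, 7 of 30 genes were higher and 1 lower, against 12.7% of all genes higher and 11.9% lower (24.6% called). The groups did not overlap in 16 of the 30, against 46.0%. The largest rises were in Perp (0.66 ± 0.13, adjusted p = 0.00293), Tnfrsf10b (0.56 ± 0.063, adjusted p = 0.000119) and Aen (0.43 ± 0.091, adjusted p = 0.00496), the Aen call being lost with the mean of its probe sets (adjusted p = 0.469). Polk was higher as well (0.40 ± 0.10, adjusted p = 0.015), a call lost without RA 2 h B or C or RA 4 h A (up to 0.0642) and with the mean of its probe sets (0.0645). From 4 to 6 h, 3 were lower and none higher, in a step where only 0.588% of all genes were called (0.313% higher and 0.275% lower). Those 3 were Cdkn1a (-0.65 ± 0.13, adjusted p = 0.0479), Polk (-0.60 ± 0.10, adjusted p = 0.0292) and Ei24 (-0.46 ± 0.070, adjusted p = 0.0195).

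The 3 calls from 4 to 6 h were each lost whichever of the 6 arrays was left out. Adjusted p went up to 0.187 for Cdkn1a, 0.133 for Polk and 0.106 for Ei24. Most calls of all genes in this step were lost too: 5 to 20 remained, against 107 with all arrays. The direction was shared widely: 24 of the 30 genes had a lower mean at 6 h than at 4 h, with a median of -0.262 beside -0.00461 over all genes. At an unadjusted p under 0.05, 18 of 30 were lower and 0 higher, against 6.30% and 6.81% of all genes. In 18 of 30 the 3 arrays at 6 h did not overlap those at 4 h, against 23.8% of all genes. Outside the 3 calls the largest differences were in Plk2 (-0.78 ± 0.22, adjusted p = 0.149), Phlda3 (-0.63 ± 0.13, adjusted p = 0.053) and Mdm2 (-0.58 ± 0.16, adjusted p = 0.137). Only Perp, Rrm2b, Ddb2, Xpc, Sesn1 and Fas had a higher mean at 6 h, by 0.15 at most (Rrm2b), and none of these was called. The lists described below were read in this step as well. Of 63 other p53 targets 16 had a higher mean at 6 h (median -0.109), and of 29 feeder fibroblast markers 8 (-0.105). Of 20 stem cell markers 7 did (-0.0433). Of 38 upstream genes it was 22 (0.019), of 27 other apoptosis genes 16 (0.0418) and of 26 DREAM genes 17 (0.0313). A part of feeder RNA in this fall was not tested.

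Over the whole interval from 2 to 6 h, 8 of 30 genes were lower and 2 higher, against 15.1% and 17.1% of all genes (32.1% called). The groups did not overlap in 15 of the 30, against 51.9%. Eda2r (-0.81 ± 0.13, adjusted p = 0.000517), Plk3 (-0.76 ± 0.21, adjusted p = 0.0182) and Cdkn1a (-0.75 ± 0.13, adjusted p = 0.000808) fell most, and Perp and Tnfrsf10b (0.28 ± 0.063, adjusted p = 0.00563) were the 2 that rose. The fall of Ei24 was -0.47 ± 0.070, adjusted p = 0.000407, and that of Phlda3 -0.48 ± 0.13, adjusted p = 0.0129. The Plk3 call was lost without RA 2 h B or C or RA 6 h C (up to 0.0577), and that of Phlda3 without RA 6 h C (0.0544). That of Tnfrsf10b was lost with probe sets without a cross-hybridization suffix (0.0788).

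**Figure D3:**
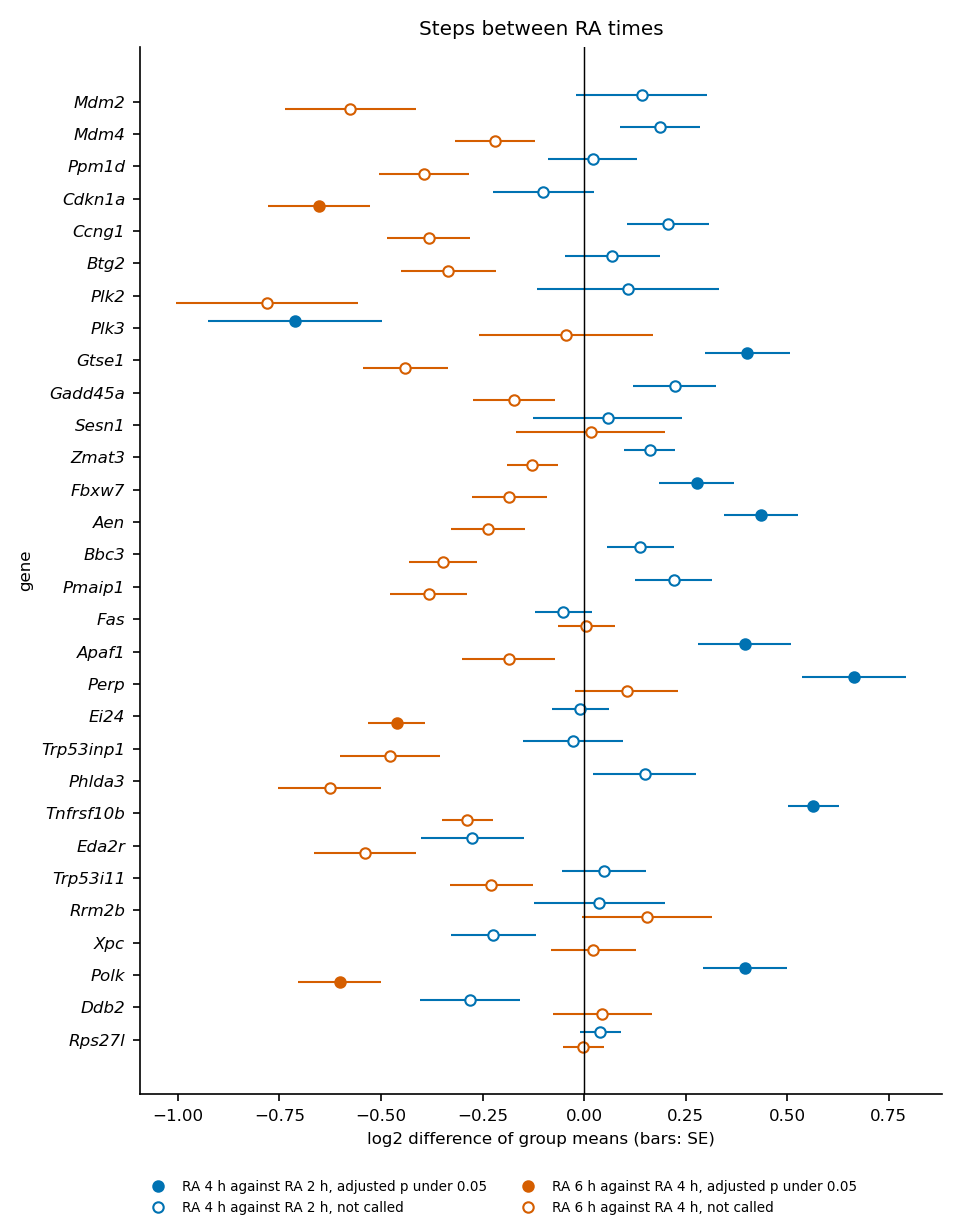
Log2 difference between RA times (x axis) for the 30 measured members (y axis), 4 h against 2 h and 6 h against 4 h, with bars for the SE of the fit. Filled points have an adjusted p under 0.05, 8 genes in the earlier step and 3 in the later one, and 24 of the 30 points of the later step lie below 0.

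Several members carried more than one probe set, and 17 could be compared in this way. In a fit of all probe sets, 2, 18 and 13 of the 58 were called at 2, 4 and 6 h against no RA, beside 1.81%, 18.7% and 20.6% of 45037 probe sets. The 2 at 2 h were that of Plk3 and 1 of Aen. Of the calls on the brightest probe sets, this fit lost Gadd45a and Ei24 at 2 h, Plk3 (0.0528), Pmaip1 (0.0502) and Ddb2 (0.0553) at 4 h, Fbxw7 from 2 to 4 h (0.0676) and Cdkn1a from 4 to 6 h (0.0752), with adjusted p given in parentheses. No gene had probe sets called in opposite directions against no RA. Ccng1 was called on all 3 of its probe sets at 4 h, by 0.46 ± 0.10, 0.55 ± 0.086 and 0.65 ± 0.14. At 6 h 1450016_at was called (0.50 ± 0.086, adjusted p = 0.00139), with values of 11.86, 11.82 and 11.61 at 6 h, against 11.26, 11.37 and 11.17 without RA. The brightest, 1420827_a_at, gave 0.080 ± 0.10 and was not called (adjusted p = 0.673), and the difference between these probe sets was not tested.

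The 4 probe sets of Aen were not called alike. The second brightest, 1450506_a_at, had log2 signals of 8.49, 8.61 and 8.42 without RA, 8.84, 8.83 and 8.86 at 2 h, 9.52, 9.38 and 9.36 at 4 h and 9.22, 9.14 and 9.24 at 6 h, with no overlap between RA and untreated arrays. It was higher at 2 h (0.33 ± 0.072, adjusted p = 0.0363), 4 h (0.91 ± 0.072) and 6 h (0.69 ± 0.072). Probe set 1437373_at instead gave 0.49 ± 0.27, -0.15 ± 0.27 and -0.29 ± 0.27, none called, with untreated C far below A and B. The dimmer Apaf1 probe set 1450223_at was called at 4 h (0.39 ± 0.12, adjusted p = 0.0367) and 6 h (0.36 ± 0.12, adjusted p = 0.0477), where the brighter one was not. Which transcripts these probe sets read was not analysed here.

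**Figure D4:**
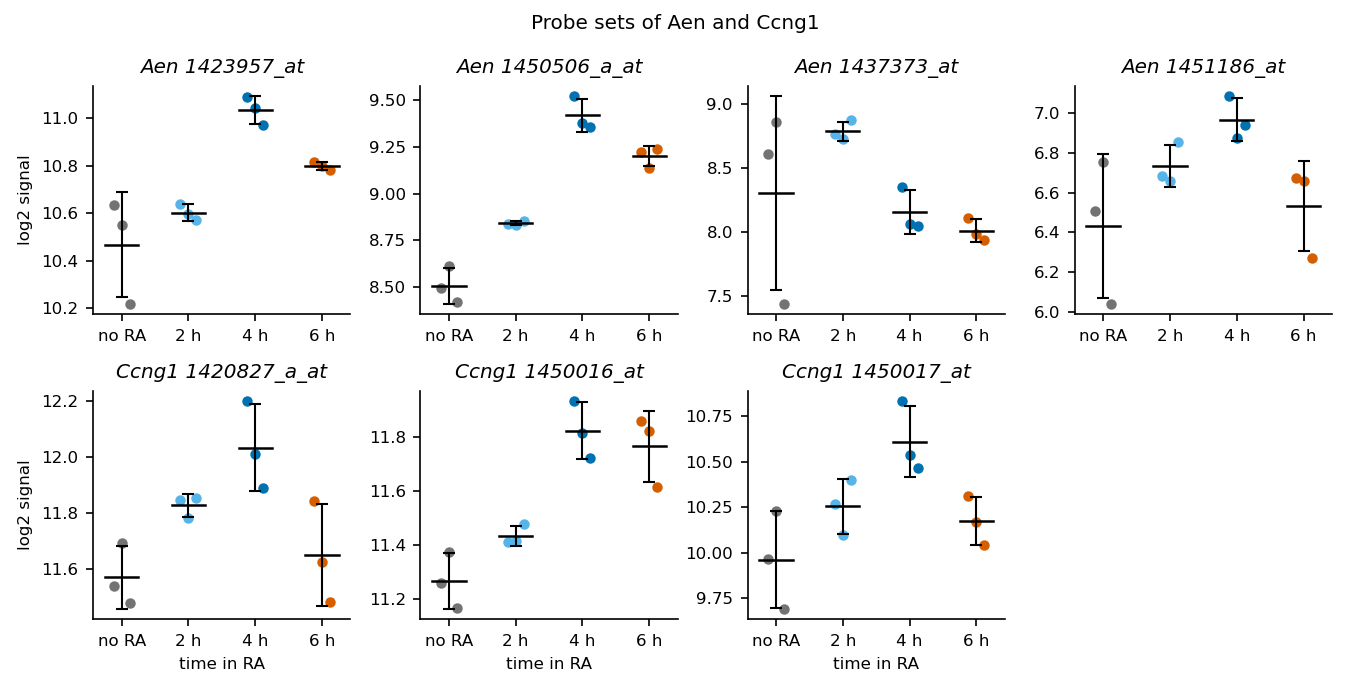
Deposited log2 signal (y axis) by group (x axis) for the 4 probe sets of Aen and the 3 of Ccng1, with a point for each array, a horizontal line for the mean of 3 and bars for the SD. The Ccng1 probe set 1450016_at is at 11.61 to 11.86 at 6 h, against 11.17 to 11.37 without RA, and 1420827_a_at is at 11.48 to 11.84, against 11.48 to 11.69 without RA.

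Genes upstream of p53 were read from a list of kinases, acetyltransferases and other modifiers, 38 of which were measured. At 2 h 2 were higher and 1 lower, at 4 h 5 higher and 11 lower, and at 6 h 8 higher and 10 lower. In all 7.89%, 42.1% and 47.4% were called, against 2.69%, 26.9% and 29.7% of all genes called in either direction. Their median difference was -0.0468, -0.0768 and -0.044. Smyd2, a methyltransferase that modifies p53 and restrains it, was higher at all 3 times (0.44 ± 0.082, 0.86 ± 0.082 and 0.93 ± 0.082, adjusted p = 1.02e-05 at 6 h). Wrap53, whose locus overlaps that of p53 on the opposite strand and whose protein guides telomerase RNA, was higher at 2 h (0.44 ± 0.10) and 4 h (0.76 ± 0.10, adjusted p = 0.000221). Hexim1, an inhibitor of transcription elongation that also binds p53, was higher at 6 h (0.61 ± 0.10, adjusted p = 0.000735). Chek2, the DNA damage kinase that phosphorylates p53, was lower at 4 h (-0.52 ± 0.089) and 6 h (-0.77 ± 0.089, adjusted p = 6.64e-05). Setd7, a methyltransferase that acts on p53, was lower at both times as well (-0.63 ± 0.090 and -0.61 ± 0.090). Trp53bp2, which encodes a p53-binding protein that favours apoptosis, was lower at 2 h (-0.42 ± 0.091, adjusted p = 0.0336).

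A further list held 63 other p53 targets. Among them 0 were higher and 2 lower at 2 h, 11 higher and 10 lower at 4 h, and 7 higher and 15 lower at 6 h. These are 3.17%, 33.3% and 34.9% of the list, near the shares of all genes at 2, 4 and 6 h given above. The median differences of the 63 were 0.031, 0.0626 and 0.00049. Klf4, a pluripotency factor that is also on the stem cell marker list, was lower at all 3 times (-0.64 ± 0.079, -1.16 ± 0.079 and -1.23 ± 0.079, adjusted p = 1.17e-06 at 6 h). Tnfaip8, an inhibitor of apoptosis, was lower at 4 h (-1.25 ± 0.15, adjusted p = 0.000126) and at 6 h (-0.83 ± 0.15). Notch1, the receptor, and Gm2a, a lysosomal lipid-binding protein, were lower at 6 h (-1.07 ± 0.10 and -0.78 ± 0.089), and Bid, which carries the death signal to mitochondria, at 2 h (-0.50 ± 0.078, adjusted p = 0.00471). Zfp365 (1.11 ± 0.15, adjusted p = 0.000249) and Arap2 (0.79 ± 0.18) were higher at 4 h.

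Cell cycle genes that p53 represses through p21 and the DREAM complex were called mostly lower. Of 26 measured, 1 was higher at 2 h, where 1.50% of all genes were, 9 were lower and 0 higher at 4 h, and 7 were lower and 1 higher at 6 h, where 14.1% and 14.7% of all genes were lower. Their median difference was -0.0202, -0.0965 and -0.0637 at 2, 4 and 6 h. Bub1b, a kinase of the spindle checkpoint, was lower at 4 h (-0.46 ± 0.076, adjusted p = 0.000884) and 6 h (-0.45 ± 0.076), and so was E2f1, an activator of S phase genes (-0.44 ± 0.070 and -0.48 ± 0.070, adjusted p = 0.000341). Racgap1, needed for cytokinesis, gave -0.35 ± 0.059 and -0.36 ± 0.059. Prc1, which bundles the spindle midzone, was lower at 4 h (-0.32 ± 0.062) and Mybl2, a transcription factor of the mitotic genes, at 6 h (-0.36 ± 0.059). The 1 call at 2 h was Nek2, a centrosome kinase (0.30 ± 0.056, adjusted p = 0.0153).

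Nanog, which p53 is known to repress, was higher at 2 h by 0.48 ± 0.08 (adjusted p = 0.00572) and was not called at 4 h (adjusted p = 0.0654) or 6 h (adjusted p = 0.382). Pou5f1, the stem cell factor Oct4, was not called at any time, and no array had any of the 20 stem cell markers below that median of 6.07. Of the 20, 2 were higher and 1 lower at 2 h, 3 higher and 8 lower at 4 h, and 3 higher and 9 lower at 6 h, with median differences of -0.0182, -0.201 and -0.224 and a range of -1.31 to 0.60 at 4 h. In all 15%, 55% and 60% were called, against 2.69%, 26.9% and 29.7% of all genes called in either direction. Feeder fibroblast markers were present as well, their median per array between 7.48 and 8.47 over 29 genes, of which 3 to 8 lay under 6.07. Their summed linear signal ran from 7623 to 11655 without RA, 9694 to 11134 at 2 h, 10267 to 12146 at 4 h and 9147 to 10516 at 6 h. Of the 29, 0 were called at 2 h, 7 higher and 1 lower at 4 h, and 5 higher and 1 lower at 6 h, while Col1a1 itself was called at no time. The 27.6% and 20.7% called at 4 and 6 h stand beside 26.9% and 29.7% of all genes. Both extremes of the untreated sums were single arrays, C the lowest and B the highest, and 23 of 29 feeder markers were lower in C than the mean of A and B, with a median difference of -0.567. Of the p53 list 19 of 30 were lower in C, with a median difference of -0.0507. The part of feeder RNA in the values of the p53 list was not tested.

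**Figure D5:**
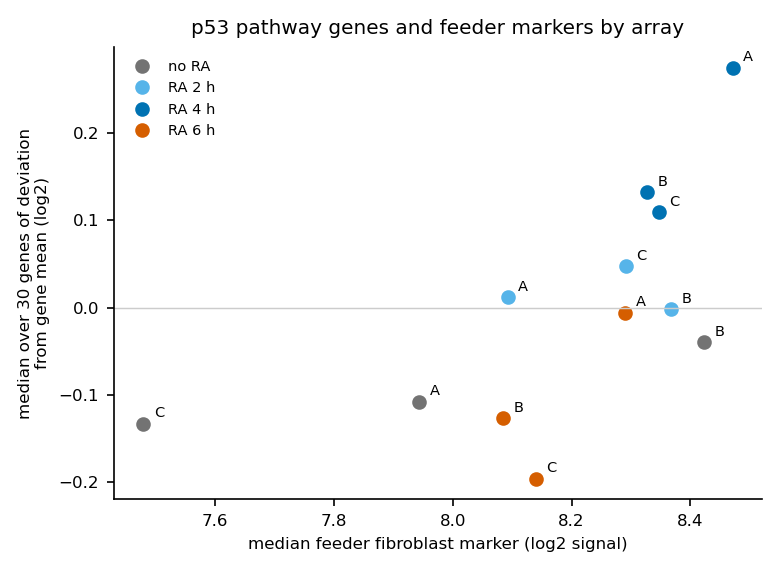
Median deviation of the 30 members from their own means over all arrays (y axis, log2) against the median log2 signal of 29 feeder fibroblast markers (x axis), a point for each of the 12 arrays, marked by group. The 3 arrays at 4 h lie highest (0.109 to 0.275), and untreated C has the lowest feeder median (7.48).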

How the data were processed

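The labels give Affymetrix mouse arrays of total RNA, 200 ng labelled with biotin. The deposited values are log2 signals for 45101 probe sets per array, and limma 3.4.3 is named in the submitters' processing notes. The method of normalization is not given in the sources used here. Array medians lay between 6.05 and 6.10, and no further normalization was applied.

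Probe sets were named from GEO's platform annotation: 34958 had 1 gene, 932 several and 9211 none, with 64 control probe sets. Those with 1 gene were used, the brightest for each of 18194 genes. A model of 4 group means over 12 arrays was fitted in R 4.3.3 with lmFit and eBayes of limma 3.58.1 (8 residual degrees of freedom, 3.78 prior), with Benjamini-Hochberg adjustment over all genes and calls at an adjusted p under 0.05. Errors are SE of the fit. A second fit held all 45037 probe sets without controls. In simulated data (200 of 18194 genes changed), a log2 change of 0.5 was recovered in 54%, 63% and 64% of genes for 2, 4 and 6 h against no RA. A change of 1 was recovered in 97%, 92% and 93%, with 8 false calls each. More genes than that were called in the data (489, 4893 and 5409). Each simulated gene also had the same spread in all groups. These rates are therefore not the sensitivity of the comparisons reported.

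All members are named, and from each pathway list the 4 called genes with the largest difference in each comparison against no RA, with Col1a1, Pou5f1 and Nanog as markers. Members and lists were chosen with earlier results of these data known. As alternatives, arrays were quantile-normalized, centred on their median or weighted. Probe sets of a gene were averaged, or those without a cross-hybridization suffix were taken. Dim genes were filtered, the variance model was trended and robust, and fits held only the 2 groups compared or the replicate letter as a block. Thresholds of 0.01 and 0.1 and fits without each array in turn were also run, for the pathway lists and the fit of all probe sets only without each untreated array. Promoters and figures used Python 3.11.15, pandas 2.3.3, numpy 2.4.6 and matplotlib 3.10.9.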

Additional observations from a re-analysis of the deposited data

Results flagged for a closer look

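The RA groups were compared with each other directly. These members differed between 2 RA times by limma's test of that difference (adjusted p under 0.05). Values are log2 differences, the later time minus the earlier. From 2 to 4 h they were 0.66 for Perp, 0.56 for Tnfrsf10b, 0.43 for Aen, 0.40 for Gtse1, 0.40 for Polk, 0.40 for Apaf1, 0.28 for Fbxw7 and -0.71 for Plk3. From 4 to 6 h they were -0.65 for Cdkn1a, -0.60 for Polk and -0.46 for Ei24. From 2 to 6 h they were 0.77 for Perp, 0.28 for Tnfrsf10b, -0.81 for Eda2r, -0.76 for Plk3, -0.75 for Cdkn1a, -0.67 for Plk2, -0.50 for Trp53inp1, -0.48 for Phlda3, -0.47 for Ei24 and -0.37 for Ppm1d. Cdkn1a, Polk and Ei24 in the later step were each lost whichever of the 6 arrays was left out. Of all genes 5 to 20 were then called in that step, against 107 with all arrays. In the earlier step Polk was lost without RA 2 h B or C or RA 4 h A, and with the mean of its probe sets Polk (adjusted p = 0.0645) and Aen (0.469) were lost. Plk3 and Fbxw7 in that step were lost whichever of the 6 arrays was left out, and Apaf1 and Gtse1 without some of them. From 2 to 6 h Plk2, Ppm1d, Plk3 and Phlda3 were each lost without some array. Tnfrsf10b from 2 to 6 h was lost with probe sets without a cross-hybridization suffix. Groups of 3 arrays are too small for a test of single arrays as outliers.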

How the results depend on the processing

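Of the 46 calls of members over the 6 comparisons, 20 were kept under every alternative run and 24 whichever array was left out; 22 were lost without some array. Over all member values, 2799 kept their side of the threshold (values called on neither side are counted here whatever their sign), 137 lost a call, 104 gained one and 2 reversed. Both reversals came with probe sets without a cross-hybridization suffix, which takes another probe set: from 2 to 6 h Ccng1 then gave 0.33 and Mdm4 0.32. Numbers of members called follow. With only the 2 groups compared they were 0, 8 and 5 at 2, 4 and 6 h against no RA (3, 13 and 9 in the report) and 5 from 4 to 6 h (3). At an adjusted p under 0.01 they were 1, 8 and 5, then 3 from 2 to 4 h, 0 from 4 to 6 h and 6 from 2 to 6 h, with 12 by the F test, and under 0.1 they were 9 from 4 to 6 h. Array weights gave 13 from 2 to 4 h (8) and 15 from 4 to 6 h. From 4 to 6 h averaging probe sets gave 1, the dim filter 5 and the trended variance model 7. All genes called moved too. With only the 2 groups compared they were 134, 3081, 3618 and 251, against 489, 4893, 5409 and 107 in the report. Array weights called 6564 genes from 2 to 4 h, against 4475. From 4 to 6 h array weights called 696, averaging 36, the dim filter 236 and the trended variance model 207. At an adjusted p under 0.01, 195, 2994 and 3479 were called against no RA. Leaving out each array gave 1 to 2 members called at 2 h, 9 to 15 at 4 h and 6 to 14 at 6 h. Between RA times it gave 3 to 6 from 2 to 4 h and 6 to 14 from 2 to 6 h. From 4 to 6 h it gave 0 members in every case, with 5 to 20 of all genes called, against 107. By the F test it gave 14 to 23 members. Probe sets of members called at 2 h were 4 after quantile normalization (2), and 11 to 23 at 6 h with each untreated array left out (13), the 23 without C. Quantile normalization split the calls of all genes at 2 h into 297 higher and 143 lower, against 273 and 216. Leaving out each untreated array gave, of the pathway lists, 3 to 6 other p53 targets (2), the 6 without B and 5 without C, and 0 to 1 DREAM genes (1), the 0 without A, at 2 h, and 7 to 10 apoptosis genes (11), the 7 without A, at 4 h. RA arrays were not left out for these lists or probe sets. Arrays of the same letter deviated together in some pairs only: deviations from group means correlated between -0.128 and 0.315, with 4 of 18 pairs over 0.1. Between 4 and 6 h the A arrays gave 0.266, the B arrays 0.0568 and the C arrays 0.315. Untreated C gave 0.153 with C at 4 h and 0.185 with C at 6 h. The fit with the replicate block called 3, 14, 10, 8, 3 and 11 members in the 6 comparisons and 20 by the F test, and lost Cdkn1a from 4 to 6 h (adjusted p = 0.0691). Except where stated here, the cause was not tested. With 3 arrays a group and no test against background, no lower limit of detection can be given for dim genes such as Fas.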

Other observations

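Of the apoptosis machinery outside the p53 list 27 genes were measured. Among them 1 was higher at 2 h, 7 were higher and 4 lower at 4 h, and 9 were higher and 3 lower at 6 h. In all 3.7%, 40.7% and 44.4% were called, against 2.69%, 26.9% and 29.7% of all genes called in either direction. The median log2 differences of the 27 were -0.0337, 0.0674 and 0.158. Bcl2l11, which encodes the BH3-only protein Bim, was higher at 4 h (0.85 ± 0.083, adjusted p = 2.83e-05) and at 6 h (1.04 ± 0.083, adjusted p = 5.14e-06), where it averaged 10.68, against 9.64 without RA. Another BH3-only gene, Bmf, was lower at 4 h (-1.04 ± 0.24, adjusted p = 0.00678). Mcl1, a survival protein of the Bcl-2 family, was the 1 gene called at 2 h (0.49 ± 0.095, adjusted p = 0.0171). Casp9, the initiator caspase that Apaf1 activates, was lower at 4 h (-0.56 ± 0.070) and at 6 h (-0.68 ± 0.070, adjusted p = 3.08e-05). Fadd, the adaptor of death receptors, was higher at 4 h (0.50 ± 0.057, adjusted p = 8.83e-05). At 6 h Casp6, an executioner caspase, was lower (-0.52 ± 0.10, adjusted p = 0.00268) and Htra2, a mitochondrial protease, was higher (0.47 ± 0.090, adjusted p = 0.00209).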
